A study of Rattus norvegicus with 7 samples.

Results

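The nuclear genes of the respiratory chain and of ATP synthase were taken by gene symbol: the Nduf genes of complex I, Sdha to Sdhd of complex II, the Uqcr genes of complex III, the Cox4 to Cox8 genes of complex IV and the Atp5 genes of complex V. The rule found 79 of the 17147 symbols in the tables, with 35 in complex I, 4 in complex II, 8 in complex III, 15 in complex IV and 17 in complex V. Of these, 76 encode subunits by name. The other 3 are Cox7a2l, an assembly factor that joins complexes III and IV, and Atp5s and Atp5sl, whose symbols follow ATP synthase but whose products are not subunits of it.

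The cells were primary mesenchymal stem cells (rMSCs) from the bone marrow of a male Sprague-Dawley rat 6 weeks of age, and no label tells the libraries apart by donor, genotype or medium or says that all came from the same animal. Cells at 20000 per specimen were seeded on films of 16 mm in diameter, sterilized with ethylene oxide gas, or on tissue culture plastic (TCP), and RNA was taken after 4 h. ISB-P is a film of a polycaprolactone-polyurethane copolymer made with propoxylated isosorbide, and PCL is the film of polycaprolactone it was compared with. The tables hold 3 libraries on ISB-P, 3 on PCL and 1 on TCP, and nothing in the labels says whether libraries of the same film came from separate cultures, so p-values measure the spread between these libraries only.

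The electron transport chain passes electrons from NADH (complex I) and succinate (complex II) through ubiquinone to complex III, and from there through cytochrome c to complex IV, which reduces oxygen. Complexes I, III and IV move protons across the inner mitochondrial membrane, and ATP synthase (complex V) uses their return to make ATP. The genes below are nuclear, and the core subunits that mitochondrial DNA encodes were not analysed here. Mesenchymal stem cells are known to rely largely on glycolysis while undifferentiated and to raise oxidative phosphorylation as they differentiate.

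Expression was given as FPKM, fragments scaled to transcript length and to the mapped fragments of the library, which can be compared between genes because it is per length. Totals over all genes lay between 539393 and 660124 FPKM and say nothing of sequencing depth, which is unknown, so that precision rests on the 3 libraries of each film. The mesenchymal markers Thy1 (925 to 1210 FPKM), Vim (3675 to 5414 FPKM) and Col1a1 (3868 to 10406 FPKM) were high in all 7 libraries. Eng (11.1 to 19.2 FPKM) and Nt5e (8.13 to 12.9 FPKM) were much lower, and Col1a2 was listed at 0 in all 7. Ptprc, the pan-leukocyte marker, lay between 0.43 and 1.48 FPKM, Cd14 between 10.9 and 31.7 FPKM and Lyz2 between 16.6 and 72.9 FPKM. Of the 10 macrophage and haematopoietic markers in the tables, 3 were listed at 0 in every library, Hbb and Hba1 among them, and the list summed to 130 FPKM on TCP against 39.4 to 46.7 FPKM on the films.

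Respiratory genes were expressed at high levels in every library. They summed to 11866 FPKM on TCP, 12379 to 13154 FPKM on PCL and 12705 to 13562 FPKM on ISB-P, or 2.05% to 2.32% of everything in a library. By group, the sums were 2937 to 3685 FPKM for complex I, 274 to 345 FPKM for complex II, 1482 to 2230 FPKM for complex III, 2763 to 3275 FPKM for complex IV and 3874 to 4541 FPKM for complex V. The median tested gene of complex IV (196 to 299 FPKM) or complex V (227 to 280 FPKM) was above that of complex I (73.8 to 94.9 FPKM) or complex II (62.2 to 80.5 FPKM) in each of the 7 libraries.

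**Figure D1:**
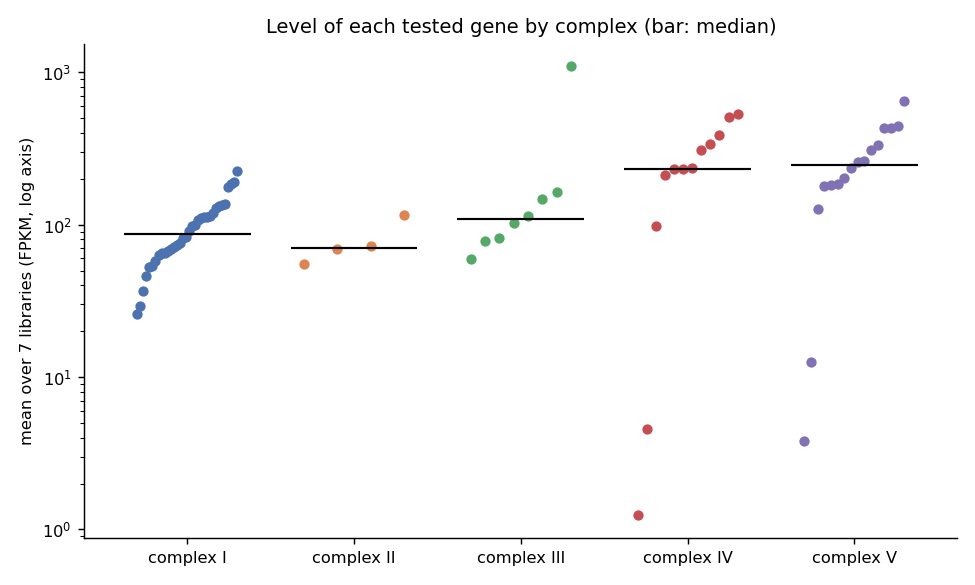
Mean level over the 7 libraries of each tested respiratory gene (FPKM, log axis), grouped by complex, with the median of each complex as a bar. Uqcr10 of complex III stands highest at 1092 FPKM, and Cox4i2 of complex IV lowest at 1.23 FPKM.

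In all, 74 genes passed the filter on low values, 1 FPKM in no fewer than 3 film libraries of 6, and were tested. The other 5 were Ndufa4l2 at 0.51 to 0.86 FPKM, Cox6a2 at 0 to 0.40 FPKM, and Cox8b, Cox8c and Atp5f1, which were listed at 0 in all 7 libraries. Atp5f1 encodes the b subunit of the stalk of ATP synthase, which the enzyme needs, so its 0 may be a failed estimate rather than a level.

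For subunits 4, 6a and 8 of complex IV, the ubiquitous form was the one with the high level. Cox4i1, the common form of subunit 4, ran from 351 to 433 FPKM, and Cox4i2, the form known from lung and from low oxygen, from 0.61 to 2.05 FPKM. Cox6a1, the liver-type form of subunit 6a, ran from 457 to 599 FPKM, while the heart and muscle form Cox6a2 reached at most 0.40 FPKM. Cox8a ran from 299 to 383 FPKM, with the muscle form Cox8b and the testis form Cox8c listed at 0. Cox7a2 ran from 161 to 298 FPKM and Cox6b2, the testis form of subunit 6b, from 3.04 to 7.13 FPKM, and their counterparts Cox7a1 and Cox6b1 were not analysed here. Ndufa4, whose protein is now placed in complex IV, ran from 132 to 382 FPKM, against at most 0.86 FPKM for its hypoxia-inducible relative Ndufa4l2. The 3 genes of the membrane ring of ATP synthase, Atp5g1, Atp5g2 and Atp5g3, encode the same mature protein and were all expressed, with means over the 7 libraries of 179, 431 and 260 FPKM.

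Copies in the genome limit some of these levels. The RefSeq gene table for GRCr8 names 83 pseudogenes for 36 of the 79 genes, with 8 for Atp5l and 7 for Ndufb4, and how reads that fit several places were counted is not given in the sources used here. Many of the genes described below are among these 36. For example, Atp5c1 and Atp5j have 4 named copies each, and Ndufa4, Uqcrb and Atp5b have 2 each. Ndufs4, Uqcr10, Sdhc, Sdhd and Cox5b have 1 each.

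ISB-P was compared with PCL to ask which transcripts differ between the films at an early time of adhesion. None of the 74 respiratory genes was called between the films by limma at an adjusted p under 0.05, where 1.10% of all 9467 tested genes were called higher on ISB-P and 0.623% lower. The smallest unadjusted p among them was 0.161, so none lay under 0.05 before adjustment either, against 12.1% of all tested genes. These p-values come from limma with replicate number left out of the fit, so they take in the spread by replicate number. With it in the fit, 1 of the 74 genes, Ndufs4, was called, as described below. The largest differences were 0.35 for Ndufs4 and -0.30 for Cox4i2 on the log2(FPKM + 1) scale, on which all folds below are also given. The median of the 74 differences was 0.05, beside 0.02 over all tested genes, and its sign turned under scaling to a common total and under quantile normalization (both -0.07).

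The spread between libraries sets what this comparison could have seen. The estimated fold was within 1.25 for 73 of the 74 genes (98.6%), as it was for 80.5% of all tested genes. The 95% interval lay inside a 1.5-fold change either way for 56 genes and inside a 2-fold change for 71. The 3 that could have differed by more than 2-fold were Ndufa4, Ndufs4 and Uqcrq, all of which also differed strongly by replicate number. Once replicate number entered the fit as a block, all 74 intervals lay inside a 1.5-fold change.

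**Figure D2:**
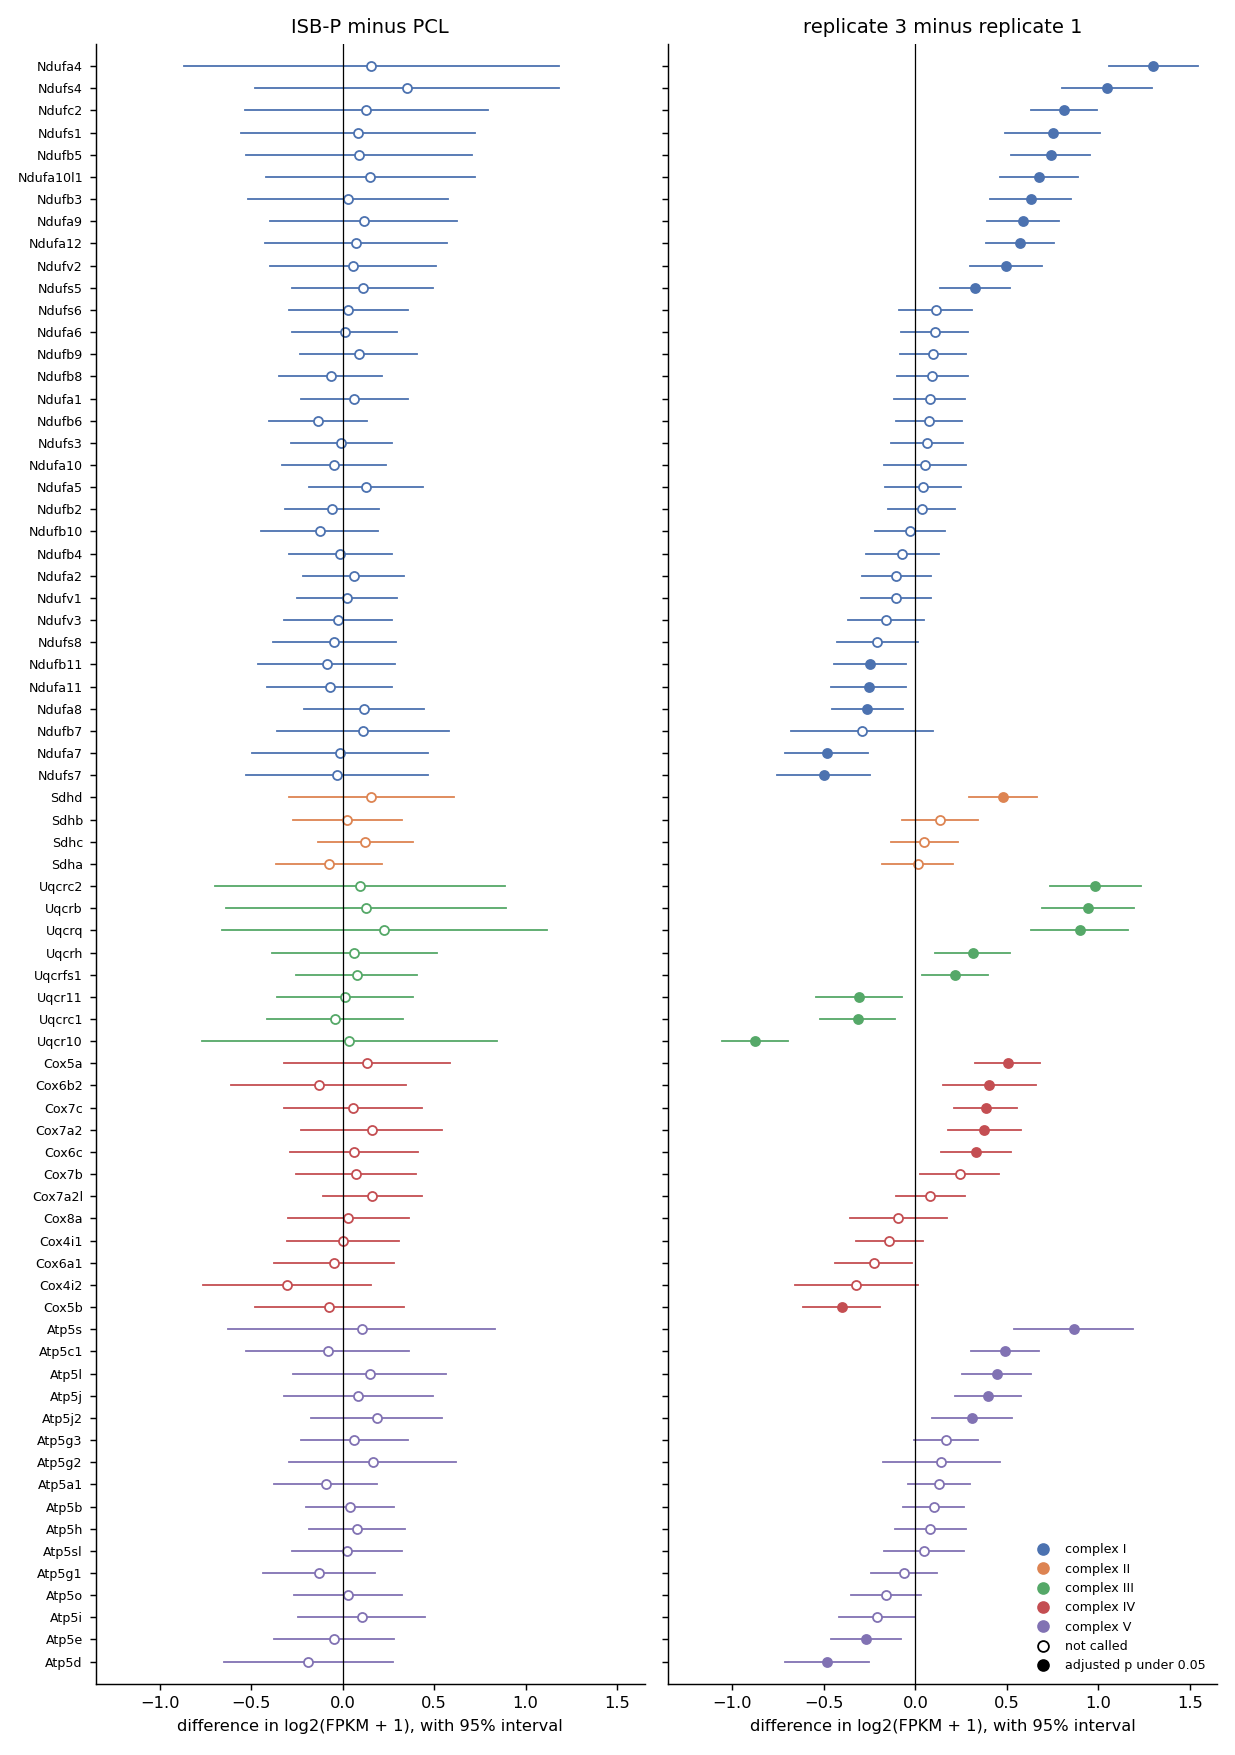
Differences in log2(FPKM + 1) for the 74 tested genes (1 is not drawn), ISB-P minus PCL on the left and replicate 3 minus replicate 1 on the right, with 95% intervals, coloured by complex, and filled where limma's adjusted p was under 0.05. No gene is filled on the left, where replicate number was left out of the fit. On the right, limma called 39 of the 74, the gene not drawn among them, 28 higher and 11 lower. Under the other scalings it called 18 to 22 higher and 21 to 26 lower. Of all tested genes, 38.5% were called higher and 23.2% lower, and 29.2% to 30.6% and 32.9% to 34.8% under the other scalings.

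Ndufs4, an accessory subunit at the NADH-oxidizing arm of complex I, differed most between the films. It was 33.6, 48.8 and 62.8 FPKM for replicates 1, 2 and 3 of PCL, 40.4, 56.7 and 94.6 FPKM for those of ISB-P, and 33.1 FPKM on TCP. ISB-P was the higher library at each replicate number, although the films overlapped. The difference of 0.35 (SE 0.35) had an adjusted p of 0.862 without the replicate block, and of 0.0207 with it (SE 0.09). Within replicates 1, 2 and 3 the differences were 0.26, 0.21 and 0.58. Without ISB-P replicate 3 the unblocked difference was 0.03, but PCL replicate 3 stayed in, and Ndufs4 was highest at that number on both films. That value therefore mixes film with replicate number. The blocked fit called 1 of the 74 genes higher and 0 lower, against 13.0% and 11.4% of all tested genes.

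Few genes separated the films without overlap. Sdhc, a membrane anchor of complex II, was 112 to 115 FPKM on PCL and 120 to 130 FPKM on ISB-P. Cox7a2l was 88.3 to 95.8 FPKM on PCL and 98.5 to 107 FPKM on ISB-P. Ndufb6, an accessory subunit of the membrane arm of complex I, was 101 to 108 FPKM on PCL and 91.0 to 99.3 FPKM on ISB-P. These 2 higher genes (8.17% of all tested genes) and 1 lower gene (9.54%) differed by 0.13 (SE 0.11), 0.16 (SE 0.11) and -0.14 (SE 0.11), with adjusted p of 0.836, 0.733 and 0.813. The exact permutation p was 0.1 for each, two-sided, which is the smallest that 3 against 3 libraries allow.

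Several catalytic subunits, and Cox4i1 of complex IV, had close levels on PCL and ISB-P. Atp5b, the catalytic beta subunit of ATP synthase, was 667 ± 26.8 FPKM on PCL and 686 ± 23.2 FPKM on ISB-P (SD, n = 3 each). Atp5a1, the alpha subunit, was 275 ± 19.8 FPKM and 258 ± 17.5 FPKM. Sdha, the flavoprotein of complex II, was 55.8 ± 4.16 FPKM and 52.8 ± 2.22 FPKM, and its iron-sulfur partner Sdhb 72.9 ± 7.12 FPKM and 74.1 ± 1.59 FPKM. For these 4 genes the film means differed by less than the larger standard deviation. Ndufv1, which binds NADH, was 71.3 ± 3.73 FPKM and 72.5 ± 2.71 FPKM, and Cox4i1 was 387 ± 32.4 FPKM and 388 ± 39.6 FPKM. The 95% interval of the difference was -0.20 to 0.28 for Atp5b, -0.36 to 0.21 for Sdha and -0.25 to 0.30 for Ndufv1. Ndufs1 was less tightly bounded, at 46.5 ± 9.91 FPKM on PCL and 50.4 ± 17.6 FPKM on ISB-P. So was Cox5a, at 240 ± 38.7 FPKM and 264 ± 49.1 FPKM. For both genes the 95% interval was not inside a 1.5-fold change.

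The libraries differed far more by replicate number than by film. Libraries with the same number deviated together from the means of their films, with correlations across the respiratory genes of 0.865, 0.697 and 0.876 for numbers 1, 2 and 3. What the numbers stand for is not stated in the labels. Between replicates 3 and 1, with film as a term, limma called 28 of the 74 genes higher (37.8%) and 11 lower (14.9%), against 38.5% and 23.2% of all tested genes. The share higher was thus near that of all genes, and the difference in the share lower was not tested. All 39 went the same way on both films, but a call averages the films, which favours such agreement. Of all 74 genes, 40 were higher in replicate 3 on both films, 21 were lower on both and 13 went opposite ways. Of the 9467 tested genes, 4879 were higher on both, 3504 lower on both and 1082 opposite.

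Direction in this comparison depends on the scaling between libraries. The median respiratory gene was 0.09 higher in replicate 3, as was the median of all tested genes (0.09), and under upper quartile scaling, scaling to a common total and quantile normalization it was -0.08, -0.05 and -0.15. Those scalings moved the median of all genes by -0.15, -0.13 and -0.13. Relative to the median of all genes, the median respiratory gene stood at -0.00 as deposited and at -0.02, -0.02 and -0.11 under the 3 scalings. The calls split into 20 higher and 23 lower, 22 and 21, and 18 and 26 under them. Of all tested genes, 29.2% were then called higher and 34.8% lower, 30.6% and 32.9%, and 30.5% and 33.9%. Of the 28 higher calls 17 were kept under all 3 scalings, and of the 11 lower calls all 11.

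In complex III, all 8 genes were called between replicates 3 and 1, 5 higher and 3 lower, where 38.5% and 23.2% of all tested genes were called. Uqcr10, a small accessory subunit and the most abundant respiratory transcript here, was 1519, 756 and 840 FPKM for replicates 1, 2 and 3 of PCL, 1519, 840 and 814 FPKM for those of ISB-P, and 1357 FPKM on TCP. The replicate 1 libraries and TCP were thus high, and the other 4 libraries low. Its difference was -0.88 (SE 0.08, adjusted p = 0.000178). Uqcrq, an accessory subunit named for ubiquinone binding, did the opposite. It was 32.1, 79.0 and 65.7 FPKM on PCL, 44.7, 77.8 and 77.6 FPKM on ISB-P and 42.3 FPKM on TCP (0.90, SE 0.12, adjusted p = 0.000347). For both genes replicate 2 differed from replicate 1 as well (-0.93 and 1.03, adjusted p = 0.00593 for each), while replicates 3 and 2 were not called apart (0.05 and -0.13, adjusted p = 0.632 and 0.404).

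The core proteins of complex III did not move together. Uqcrc2 was 80.1, 122 and 141 FPKM on PCL, 80.2, 117 and 180 FPKM on ISB-P and 76.6 FPKM on TCP, a difference of 0.98 between replicates 3 and 1 (SE 0.11, adjusted p = 0.000202). Its partner Uqcrc1 was 95.0, 76.6 and 80.5 FPKM on PCL, 93.8, 80.3 and 70.9 FPKM on ISB-P and 74.2 FPKM on TCP (-0.32, SE 0.09, adjusted p = 0.0154). Uqcrc2 was therefore the lower of the 2 in both replicate 1 libraries and the higher in the other 4 film libraries. Uqcrb, which contributes to ubiquinone binding, was 57.9, 76.3 and 97.2 FPKM on PCL, 56.8, 77.7 and 127 FPKM on ISB-P and 53.7 FPKM on TCP (0.94, SE 0.11, adjusted p = 0.000233). Uqcr11 was lower by -0.31 (SE 0.10). Uqcrh, the hinge protein that docks cytochrome c, and Uqcrfs1, the Rieske iron-sulfur protein that passes on the electrons, were 0.31 and 0.21 higher, and neither call held under any of the 3 scalings, with Uqcrfs1 at -0.05 under quantile normalization. Cyc1, the cytochrome c1 subunit that the symbol rule left out, was 130, 116 and 107 FPKM on PCL and 149, 127 and 98.0 FPKM on ISB-P, lower by -0.44 (SE 0.10, adjusted p = 0.00461).

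**Figure D3:**
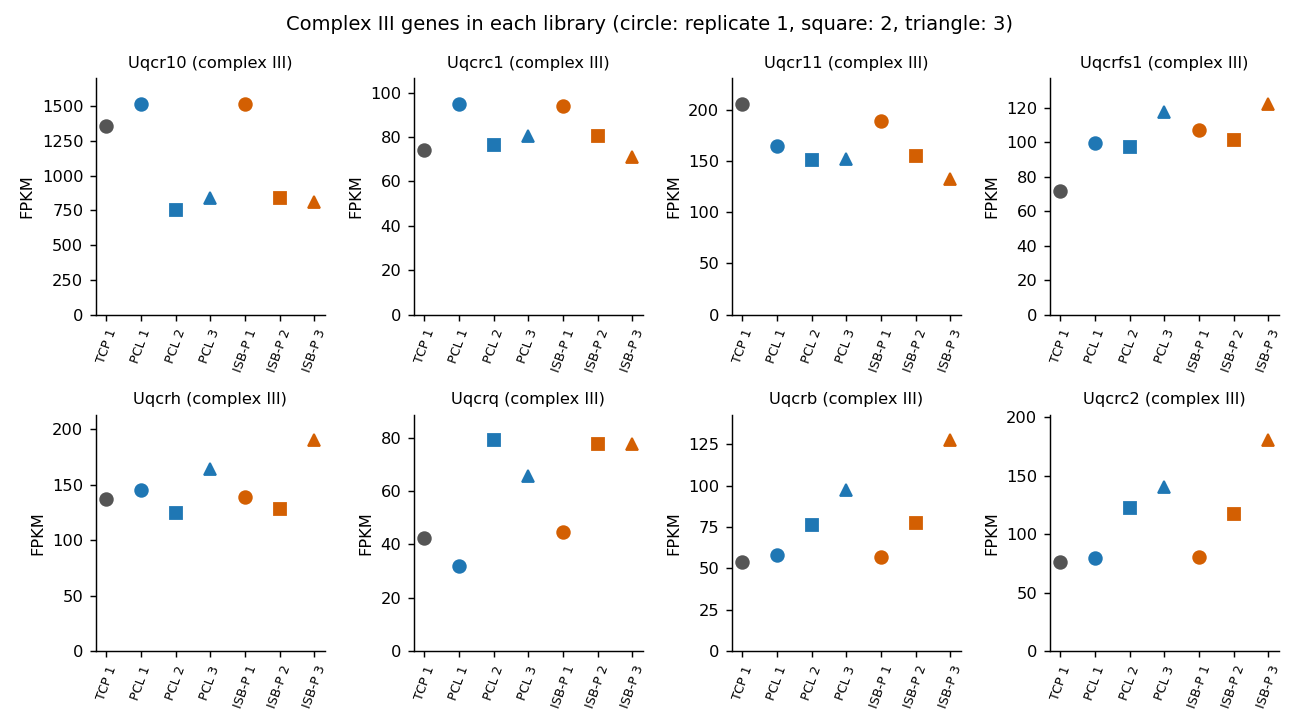
FPKM of the 8 complex III genes in each library, with TCP in grey, PCL in blue and ISB-P in orange, and the replicate number as the symbol. Uqcr10 is high in both replicate 1 libraries (1519 FPKM each) and on TCP (1357 FPKM), and Uqcrq, Uqcrc2 and Uqcrb are low in the same 3 libraries.

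The promoters of Uqcr10, Uqcrq and Uqcrc2 are shown because these genes of the same complex went in opposite directions between replicates 3 and 1. Each is the window of 250 bases before to 50 bases after the gene's start from RefSeq (build GRCr8), read 5′ to 3′ on the strand of the gene. Uqcr10 lies at chr14:83791865-83792164 on the minus strand, Uqcrq at chr10:38089929-38090228 on the minus strand and Uqcrc2 at chr1:184598990-184599289 on the plus strand. Capitals mark the letters CCGGAAG on either strand, the core that GABPA (nuclear respiratory factor 2), like other ETS factors, is known to bind. Uqcrq holds 1 match, Uqcrc2 holds 2 on the other strand, and Uqcr10 holds none in this window.
Uqcr10: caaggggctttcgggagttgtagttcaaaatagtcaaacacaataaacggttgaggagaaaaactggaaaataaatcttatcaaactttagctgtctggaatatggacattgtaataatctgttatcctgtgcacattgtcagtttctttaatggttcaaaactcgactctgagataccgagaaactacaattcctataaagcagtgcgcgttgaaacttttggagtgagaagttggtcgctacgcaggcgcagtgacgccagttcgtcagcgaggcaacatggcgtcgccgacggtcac
Uqcrq: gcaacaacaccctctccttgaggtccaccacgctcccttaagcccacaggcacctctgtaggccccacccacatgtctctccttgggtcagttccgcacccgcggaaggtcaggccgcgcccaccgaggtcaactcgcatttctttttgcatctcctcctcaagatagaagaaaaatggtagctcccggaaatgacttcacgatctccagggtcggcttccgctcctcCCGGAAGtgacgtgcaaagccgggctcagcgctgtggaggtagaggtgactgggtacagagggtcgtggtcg
Uqcrc2: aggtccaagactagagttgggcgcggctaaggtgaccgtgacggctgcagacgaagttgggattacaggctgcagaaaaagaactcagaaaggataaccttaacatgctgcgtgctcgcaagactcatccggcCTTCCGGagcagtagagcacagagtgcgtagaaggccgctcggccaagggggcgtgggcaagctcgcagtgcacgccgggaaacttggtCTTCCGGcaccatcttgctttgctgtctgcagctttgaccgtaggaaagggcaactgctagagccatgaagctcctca

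Promoters were found for 68 of the 79 genes. The GABPA letters CCGGAAG, searched on both strands, were in 19 of them (27.9%), against 20.1% of the 7744 tested genes with a promoter and 8.75% of all 33469 promoters in the table. The letters GCGCANGCG of NRF1, nuclear respiratory factor 1, searched the same way, were in 18 (26.5%), against 14.6% of tested genes and 5.80% of all promoters. The letters differ too much for the same bases to match both, and a promoter with both was counted once. At least 1 of them was in 34 promoters (50%), against 31.2% of tested genes. By replicate call, either was in 11 of 24 promoters of genes that were higher in replicate 3 (45.8%), 3 of 9 of genes that were lower (33.3%) and 20 of 30 of genes not called (66.7%). A match describes the letters of the window and is not a measured binding site.

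Between replicates 3 and 1, Ndufa4 and Ndufs4 of the complex I group had the largest increases of the 74 genes. The median difference of complex I was 0.08, beside 0.09 to 0.26 for the other complexes and 0.09 over all tested genes. Of the 34 tested genes of complex I, 12 were called higher (35.3%) and 5 lower (14.7%), against 38.5% and 23.2% of all tested genes. Ndufa4 was 132, 244 and 287 FPKM on PCL, 136, 246 and 382 FPKM on ISB-P and 157 FPKM on TCP, 2.46-fold higher in replicate 3 than in replicate 1 (log2 1.30, SE 0.11, adjusted p = 0.000178). Ndufs4, whose values are given above, was 2.07-fold higher (log2 1.05, SE 0.11, adjusted p = 0.000179). In both genes the replicate 1 libraries were the lowest on their film and the replicate 3 libraries the highest. Ndufs1, the largest iron-sulfur subunit of the NADH arm, was 36.2, 47.4 and 55.9 FPKM on PCL, 37.7, 43.1 and 70.5 FPKM on ISB-P and 33.5 FPKM on TCP (0.75, SE 0.11, adjusted p = 0.000696). Ndufc2 (0.81), Ndufb5 (0.74), Ndufa10l1 (0.68), Ndufb3 (0.63), Ndufa9 (0.59), Ndufa12 (0.57) and Ndufv2 (0.50), among which Ndufv2 is a core subunit with an iron-sulfur centre and the others, Ndufa10l1 aside, accessory subunits, were also called higher and kept the call under all 11 other settings. Ndufs5, an accessory subunit, was called at 0.33, and its call held under none of the 3 scalings.

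Among the complex I genes that were lower was a core subunit. Ndufs7, the core subunit that carries the last iron-sulfur cluster before ubiquinone, was 70.7, 63.6 and 56.0 FPKM on PCL, 73.8, 69.7 and 45.9 FPKM on ISB-P and 62.6 FPKM on TCP (-0.50, SE 0.11, adjusted p = 0.00433). Ndufa7 (-0.49), Ndufa8 (-0.26), Ndufa11 (-0.26) and Ndufb11 (-0.25) were the other 4. Of these 5 genes only Ndufs7 kept its call under all 11 other settings. Ndufv1, the subunit that takes electrons from NADH, ran from 68.9 to 75.6 FPKM over all 7 libraries and was not called (-0.11, 95% interval -0.30 to 0.09).

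The promoters of Ndufa4 and Ndufs4 are shown as those of the respiratory genes with the largest increases between replicates 3 and 1. Ndufa4 lies at chr4:40975510-40975809 and Ndufs4 at chr2:47794865-47795164 (RefSeq, GRCr8), both on the minus strand, with the same window and direction as above. Neither holds the letters of GABPA or NRF1, so no base is in capitals.
Ndufa4: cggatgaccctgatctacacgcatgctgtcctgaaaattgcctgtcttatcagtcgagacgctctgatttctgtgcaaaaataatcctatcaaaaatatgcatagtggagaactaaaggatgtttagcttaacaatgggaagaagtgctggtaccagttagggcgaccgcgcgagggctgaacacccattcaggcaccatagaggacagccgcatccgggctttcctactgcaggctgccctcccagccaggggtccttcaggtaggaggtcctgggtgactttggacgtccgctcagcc
Ndufs4: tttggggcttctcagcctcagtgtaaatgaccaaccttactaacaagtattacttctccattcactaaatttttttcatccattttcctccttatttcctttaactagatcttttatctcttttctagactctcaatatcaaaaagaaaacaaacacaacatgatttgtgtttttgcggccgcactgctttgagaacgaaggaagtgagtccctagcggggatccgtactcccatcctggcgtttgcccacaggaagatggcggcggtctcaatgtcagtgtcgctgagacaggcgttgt

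In complex II, 1 of 4 genes was called higher (25%) and 0 lower, against 38.5% and 23.2% of all tested genes. Sdhd, which with Sdhc anchors the enzyme in the membrane, was 55.4, 71.8 and 78.9 FPKM on PCL, 62.4, 81.7 and 85.7 FPKM on ISB-P and 46.7 FPKM on TCP (0.48, SE 0.08, adjusted p = 0.00123). The replicate 1 library was the lowest on each film. Sdha, Sdhb and Sdhc differed by 0.01, 0.14 and 0.05 with 95% intervals of -0.18 to 0.21, -0.07 to 0.34 and -0.14 to 0.23, and were not called. Under quantile normalization Sdhc turned to -0.22 (adjusted p = 0.0304).

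In the complex IV group, with Cox7a2l counted in, 5 of 12 tested genes were called higher (41.7%) and 1 lower (8.33%). Of all tested genes, 38.5% and 23.2% were. Cox5a and Cox5b, accessory subunits that sit beside the catalytic core, went opposite ways. Cox5a was 197, 251 and 272 FPKM on PCL, 213, 267 and 311 FPKM on ISB-P and 136 FPKM on TCP (0.50, SE 0.08, adjusted p = 0.000711). Cox5b was 251, 199 and 203 FPKM on PCL, 243, 209 and 171 FPKM on ISB-P and 201 FPKM on TCP (-0.40, SE 0.09, adjusted p = 0.00529). Cox5b was thus the higher of the 2 in both replicate 1 libraries and on TCP, and Cox5a in the other 4 film libraries. Cox6b2, Cox7c, Cox7a2 and Cox6c were called at 0.40, 0.38, 0.38 and 0.33, and each lost its call under at least 1 of the 3 scalings.

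The ATP synthase group, with Atp5s and Atp5sl counted in, had 5 of 16 tested genes called higher (31.2%) and 2 lower (12.5%). Of all tested genes, 38.5% and 23.2% were. The gamma subunit Atp5c1, the rotor shaft, was 114, 135 and 153 FPKM on PCL, 104, 125 and 153 FPKM on ISB-P and 101 FPKM on TCP (0.49, SE 0.08, adjusted p = 0.00104). The delta subunit Atp5d, which sits at the foot of the same shaft, was 219, 198 and 177 FPKM on PCL, 211, 185 and 133 FPKM on ISB-P and 168 FPKM on TCP (-0.48, SE 0.10, adjusted p = 0.00312). Partner subunits of the rotor therefore had opposite directions, and Atp5e, the epsilon subunit bound to them, went with Atp5d (-0.27, SE 0.08). Atp5s was 2.05, 4.59 and 4.60 FPKM on PCL and 2.71, 3.77 and 5.70 FPKM on ISB-P (0.86, SE 0.14, adjusted p = 0.00104). Atp5l, Atp5j and Atp5j2, subunits of the stalk and membrane part, were called at 0.44, 0.40 and 0.31, and lost the call under at least 1 of the 3 scalings. The catalytic pair Atp5a1 and Atp5b differed by 0.13 (SE 0.08) and 0.10 (SE 0.07) and was not called.

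**Figure D4:**
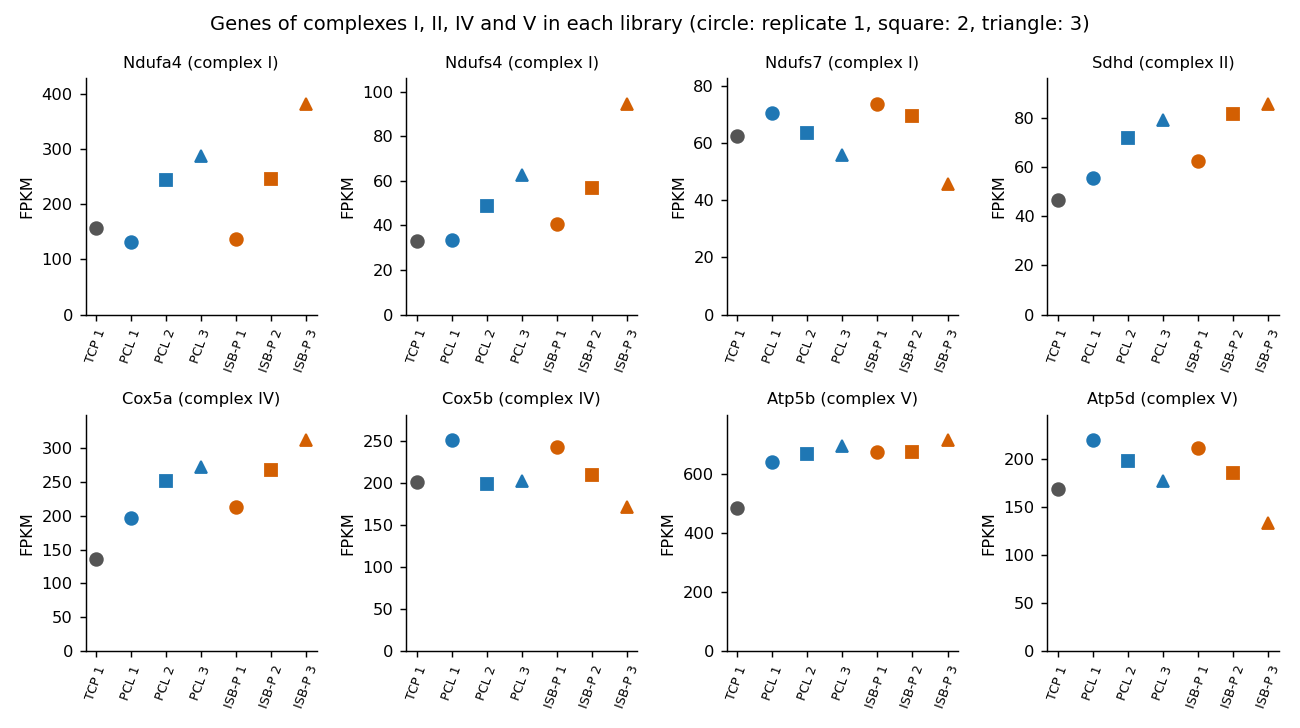
FPKM of 8 genes of complexes I, II, IV and V in each library, with TCP in grey, PCL in blue and ISB-P in orange, and the replicate number as the symbol. Ndufa4, Ndufs4, Sdhd and Cox5a are lowest in the replicate 1 library of each film, Ndufs7, Cox5b and Atp5d are highest there, and Atp5b ranges from 641 to 713 FPKM on the films.

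The other replicate contrasts had fewer calls. Between replicates 2 and 1, 16 of the 74 genes were called higher and 5 lower, against 16.8% and 8.51% of all tested genes, and between replicates 3 and 2, 14 and 3, against 21.6% and 6.19%. These contrasts share libraries with each other and with the comparison of replicates 3 and 1. Without PCL replicate 3 the median difference between replicates 3 and 1 was 0.0961 for the respiratory genes and 0.0884 for all tested genes. Without ISB-P replicate 1 it was 0.101 and 0.115. Either omission leaves 1 library at its replicate number, so calls are not counted.

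Gene length went along with the difference by replicate number. The respiratory genes that were higher in replicate 3 had a median genomic length of 10.8 kb, those lower 4.72 kb and those not called 6.40 kb, in the RefSeq gene table of GRCr8, which covers introns. Over the 74 genes Spearman's rho between length and difference was 0.37, and over the 9332 tested genes with a length it was 0.24. These are descriptions across genes that share the same 6 libraries. GC content of the promoter window did not go along with it (rho -0.01 over 63 respiratory genes and -0.07 over 7744 genes). The part of length in the result was not tested. Levels of cell type markers differed by replicate number too. Of the 9 tested mesenchymal markers 3 were called higher in replicate 3 than in replicate 1, Cd44 (0.51), Nt5e (0.50) and Pdgfra (0.24), and 5 lower, Col1a1 (-0.51), Col3a1, Eng, Pdgfrb and Vim, and Thy1 was not called (-0.01). Of the 4 adipocyte markers only Fabp4 was tested, and it was higher, at 19.0, 24.1 and 31.2 FPKM on PCL and 23.0, 25.2 and 40.6 FPKM on ISB-P (0.74, SE 0.10, adjusted p = 0.000446). The others lay under 1 FPKM on the films. From replicate 1 to 3, Cfd went from 0.76 to 0.52 FPKM on PCL and from 0.78 to 0.51 FPKM on ISB-P. Plin1 went from 0.78 to 0.53 FPKM and from 0.63 to 0.30 FPKM, and Adipoq from 0.15 to 0.32 FPKM and from 0.05 to 0.11 FPKM. The part of cell state or composition was not tested, and in bulk RNA fewer cells of a type and less RNA per cell cannot be told apart.

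Other genes of mitochondrial energy supply gave the following between replicates 3 and 1, again beside 38.5% of all tested genes called higher and 23.2% lower. Of the 12 carriers and core genes that the symbol rule left out, 6 were higher and 3 lower. Cycs, the mobile cytochrome c that shuttles electrons from complex III to complex IV, was 94.3, 194 and 255 FPKM on PCL, 128, 227 and 502 FPKM on ISB-P and 77.4 FPKM on TCP (1.70, SE 0.15, adjusted p = 0.000178). It was above every respiratory gene of the rule in this difference, and was lowest on TCP and in the replicate 1 libraries. Ndufab1, the acyl carrier protein that is part of complex I, was 13.8, 30.4 and 34.6 FPKM on PCL and 16.1, 29.9 and 48.0 FPKM on ISB-P. Atpif1, the inhibitor of ATP synthase, was 393, 213 and 314 FPKM on PCL and 377, 258 and 310 FPKM on ISB-P (-0.30, SE 0.10, adjusted p = 0.0238).

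Of 27 tested assembly factors 14 were higher and 4 lower, of 17 genes of the tricarboxylic acid cycle and pyruvate dehydrogenase 9 and 1, of 66 mitochondrial ribosomal proteins 29 and 10, of 73 cytosolic ribosomal proteins 29 and 13, of 16 glycolysis genes 3 and 4, and of 4 uncoupling and supercomplex genes 2 and 1. Among 13 tested regulators of mitochondrial biogenesis 5 were higher and 4 lower. Gabpa, the DNA-binding subunit of nuclear respiratory factor 2, was 14.2, 23.0 and 27.7 FPKM on PCL and 16.5, 23.6 and 37.6 FPKM on ISB-P (1.03, SE 0.11, adjusted p = 0.000188), and Tfam, which packages and transcribes mitochondrial DNA, was 24.5, 31.3 and 44.2 FPKM on PCL and 28.5, 33.8 and 54.7 FPKM on ISB-P (0.87, SE 0.09). Esrra, the orphan receptor that acts with the PGC-1 coactivators, was 26.9, 21.7 and 17.8 FPKM on PCL and 25.6, 18.5 and 11.3 FPKM on ISB-P (-0.84, SE 0.13). The coactivators Ppargc1a and Ppargc1b lay at or under 0.31 FPKM in all 7 libraries.

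Between the films, none of the genes in these lists was called without the block. With it, Cycs (0.54, SE 0.12, adjusted p = 0.0145), Gabpb1 (0.61, SE 0.08, adjusted p = 0.00134) and Nrf1 (0.41, SE 0.09, adjusted p = 0.0123) were among the genes called higher on ISB-P and Dhodh, which feeds electrons from pyrimidine synthesis to ubiquinone, was called lower (-0.49, SE 0.09, adjusted p = 0.00587), beside the 13.0% and 11.4% of all tested genes given above for the blocked fit. By list, the block called 3 higher (Cycs, Etfa and Gpd2) and 1 lower of the 12 carriers and core genes, 3 higher (Gabpb1, Nrf1 and Pprc1) and 2 lower (Polg and Polrmt, the polymerases of mitochondrial DNA and RNA, at -0.34 and -0.43) of the 13 regulators, 2 and 2 of the 27 assembly factors, 2 and 0 of the 17 genes of the tricarboxylic acid cycle, 8 and 3 of the 66 mitochondrial and 5 and 0 of the 73 cytosolic ribosomal proteins, 3 and 0 of the 16 glycolysis genes and 0 and 0 of the 4 uncoupling and supercomplex genes. Nrf1 was 8.49 to 9.11 FPKM on PCL and 11.5 to 13.3 FPKM on ISB-P, and Gabpb1 5.65 to 7.84 FPKM on PCL and 8.68 to 13.4 FPKM on ISB-P. The films did not overlap in either gene, and 8.17% of all tested genes were likewise higher on ISB-P without overlap. Without the block limma's adjusted p was 0.192 for Nrf1 and 0.252 for Gabpb1.

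TCP was a single library, so the films were set against it without a test. Of the 74 genes, 12 (16.2%) had an ISB-P mean more than 1.5 times the TCP level and 2 (2.70%) one as far below, against 21.0% and 13.3% of all tested genes. For PCL, 2 genes (2.70%) lay past that limit above TCP and 2 (2.70%) below, against 14.1% and 9.28%. Cox5a was furthest above TCP, 1.94-fold on ISB-P and 1.76-fold on PCL, followed on ISB-P by Ndufs4 (1.91-fold) and Ndufa12 (1.81-fold). Ndufa12, an accessory subunit of complex I, was 111 FPKM on TCP and 149 to 241 FPKM on the films. Complex III gave 4 of the 12 genes above TCP on ISB-P, namely Uqcrb, Uqcrc2, Uqcrfs1 and Uqcrq.

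Below TCP on both films were Ndufv3, an accessory subunit of the NADH arm, with 52.2 FPKM on TCP against 30.6 to 36.0 FPKM, and Cox6b2, with 7.13 FPKM against 3.04 to 5.13 FPKM. Each film library lay below TCP for these 2 genes. The count above TCP went with replicate number: it was 0, 8 and 16 genes for PCL replicates 1, 2 and 3 taken alone and 1, 10 and 21 for ISB-P replicates 1, 2 and 3. Under each of the 3 scalings it was 3 for the ISB-P mean. The same counts were not taken over all tested genes, so whether this is particular to the respiratory genes was not tested. For 42 of the 74 genes (56.8%) the mean of the replicate 1 libraries was nearer to TCP than those of replicates 2 and 3, as for 55.2% of all tested genes. On TCP the adipocyte marker Fabp4 was 71.1 FPKM, against 19.0 to 40.6 FPKM on the films, and the macrophage marker Lyz2 72.9 FPKM, against 16.6 to 27.2 FPKM, and their part in the differences from TCP was not tested.

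**Figure D5:**
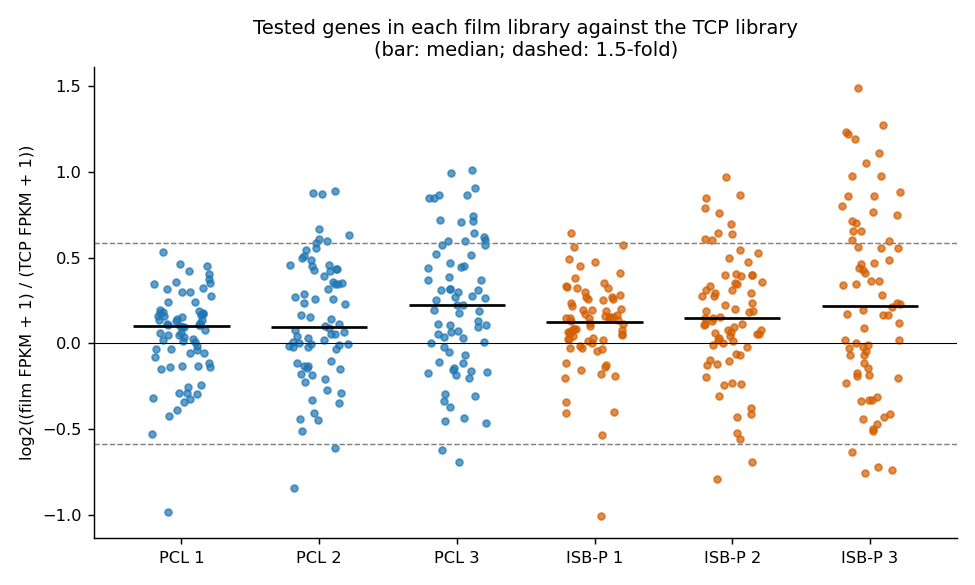
Log2 ratio of each film library to the TCP library, (film FPKM + 1) over (TCP FPKM + 1), for the 74 tested genes, with the median as a bar and dashed lines at 1.5-fold. Values as deposited are plotted. The medians run from 0.10 in both PCL replicates 1 and 2 to 0.22 in PCL replicate 3 and ISB-P replicate 3. There 16 and 21 genes lie above the upper line, a count that was not taken over all tested genes.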

How the data were processed

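RNA-seq tables of 7 libraries were used: 3 on ISB-P, 3 on PCL and 1 on TCP, with groups and replicate numbers from the labels. The authors prepared stranded mRNA libraries with the Illumina TruSeq kit and analysed them with ExDEGA. The submitters' processing notes name bcl2fastq 2.20.0.422, cutadapt 1.18, TopHat2 2.0.13, Cuffdiff 2.2.1 and build rn5. The authors deposited 1 value for each of 17147 symbols per library, read here as FPKM from the values and from Cuffdiff, since no header names the unit. Depth is unknown, so no interval for counting error is given.

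Differences were fitted with limma 3.58.1 in R 4.3.3 (eBayes with a mean-variance trend, two-sided, Benjamini-Hochberg over all tested genes) on log2(FPKM + 1), which understates changes of low genes. The filter kept 9467 genes that reached 1 FPKM in 3 or more of 6 film libraries, and calls needed an adjusted p under 0.05. The film fit had no replicate block, and the replicate fit had film and replicate number as terms. Same-numbered libraries correlated in their deviations from the film means (0.887, 0.431 and 0.867 over all tested genes), so the numbers, which come from the labels, were taken to pair the libraries and blocked values are given where they change a call. The fits were tested on simulated data. Folds against TCP are of mean FPKM + 1, with no test.

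The genes described and the other lists were chosen with earlier results of these data known. Within each complex the text names the genes with the highest and the lowest level and those with the largest differences in each comparison. It also names catalytic or otherwise defining subunits, isoforms and genes listed at 0. One result that the rule names is not reported here. Other genes were named after their values were seen. Cytosolic ribosomal proteins were taken by symbol, without Rps6k genes and Rps19bp1. Alternatives were 3 scalings, a pseudocount of 0.1, other filters and thresholds, no trend, TCP in the fit, the replicate block, each film alone and each library left out. Python 3.11.15 and matplotlib 3.10.9 were used for plots.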

Additional observations from a re-analysis of the deposited data

How the results depend on the processing

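No respiratory gene was called between ISB-P and PCL under any of the 14 settings without a replicate block, where the smallest adjusted p was 0.414 (Ndufs4, without ISB-P replicate 1). Leaving out each library in turn gave 0 higher and 0 lower calls each time. Those fits called only 0.148% to 0.866% of all tested genes higher and 0.0634% to 0.327% lower, so a count of 0 says little. The study's limits on fold, p and level gave 0 calls too, and its 2-fold limit could not be passed where the largest difference was 0.35. The replicate block gave 1 higher call and moved no other call of these genes. The median difference ranged from 0.00 to 0.07 over the left-out libraries and was -0.07 under scaling to a common total (-0.0676) and quantile normalization (-0.0713). Between replicates 3 and 1, upper quartile scaling gave 23 lower calls and a median of -0.0808, and scaling to a common total 21 and -0.0528. Quantile normalization gave 26 lower calls, 18 higher and a median of -0.147. Lower calls rose among all tested genes too, to the shares given above. The first 2 scalings move all genes of a library together by construction, and quantile normalization does not. Why the respiratory genes moved further under it than the median of all genes was not tested. Leaving out a library gave 23 to 32 higher calls, 5 to 19 lower and medians of 0.0962 to 0.119, and ISB-P alone a median of 0.116. Such fits have 1 residual degree of freedom, so their p-values lean on the other genes' spread. Quantile normalization reversed Sdhc (-0.222) and Uqcrfs1 (-0.046). Of 28 higher and 11 lower calls, 17 and 4 were kept under every setting. For genes not called, signs changed in 55 values for the films and 30 for the replicates. Against TCP, a fold limit of 2 left 0 genes in either direction on both films. Single libraries gave 0, 8 and 16 genes above and 1, 2 and 2 below for PCL, and 1, 10 and 21 above and 1, 2 and 4 below for ISB-P. The ISB-P mean gave 3 genes above under each scaling and 4 below under quantile normalization. The counts from single libraries and scalings were not taken over all tested genes. The causes of these changes were not tested. Depth is unknown, TCP has 1 library, and 3 libraries a film limit the film comparison to the intervals given.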
